A study of Caenorhabditis elegans with 12 samples.

Results

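The proteasome subunit genes of C. elegans were examined in poly(A) RNA of whole worms. They were chosen by name, as all genes whose symbol begins with pas, pbs, rpt or rpn followed by a number, which gave 33 of the 46748 genes in the count table. All 33 passed the filter on low counts that left 14511 genes for testing. They comprise 14 genes of the core particle (7 pas and 7 pbs) and 19 of the regulatory particle (6 rpt and 13 rpn). All worms were day-1 adults, fed E. coli OP50 and grown at 20 °C, in 3 genotypes with 4 libraries each: wild type (strain N2), crh-1(syb385) (strain VDL786) and crh-1(n3315) (strain MT9973). The syb385 allele was made by genome editing: an intronic stretch of crh-1 needed to form the circular RNA circ-crh-1 is deleted. The n3315 allele is null for the CREB transcription factor that crh-1 encodes. The study's methods move larvae to plates with FUdR, which blocks DNA synthesis and progeny, except where stated. That section covers collection for RNA-Seq and states no exception for it, while the sample labels name no FUdR. Its use in these worms thus rests on the methods text alone. The design asks how loss of the circular RNA and loss of the protein differ in their effect on mRNA levels.

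The proteasome is the main protease for ubiquitin-tagged proteins in the cytosol and nucleus of eukaryotes. Its core particle is a barrel of stacked rings, with α subunits (pas genes) on the outside forming the gate and β subunits (pbs genes) inside, some of which cut peptides. The regulatory particle caps the barrel: its ATPase ring (rpt genes) unfolds and feeds in substrates, and its non-ATPase subunits (rpn genes) hold scaffolds, ubiquitin receptors and the enzyme that removes the ubiquitin chain. In worms, proteasome activity is required for fertility and embryonic growth, and raised expression of rpn-6.1 has been linked to long life.

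Total counts per library were 16348586 to 25369267. The crh-1 count itself could not check the labels: it was 42.4 ± 4.06 CPM (counts scaled to a common library size; SD, n = 4) in wild type, 44.8 ± 1.41 in crh-1(syb385), whose deletion lies outside the exons, and 50.1 ± 2.41 in libraries labelled crh-1(n3315), called n3315 libraries here. A trend with gene length set libraries apart. Relative to the wild-type mean, tested genes of at least 2000 exonic bases minus those under 1000 had a median log2 CPM difference of -0.72 in wild-type replicate 3, of 0.16 to 0.34 in the other wild-type libraries, of -0.03 to 0.06 in crh-1(syb385) and of 0.34 to 0.70 in the n3315 libraries. Wild-type replicate 3 therefore stood apart, and calls for the genes described one by one are given without it where they change.

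Proteasome subunit mRNAs were abundant in all 3 genotypes. They took 0.674% to 0.805% of the counts in wild-type libraries, 0.804% to 0.861% with syb385 and 0.751% to 0.808% with n3315. On the FPKM scale, which divides CPM by the exonic length in kilobases, the median level in wild type was 186 over the core genes and 141 over the regulatory genes, against 10.7 over all tested genes. The highest wild-type levels belonged to α subunits: pas-5 had 342 ± 136 FPKM (SD, n = 4), pas-3 had 326 ± 55.4 and pas-2 had 274 ± 38.5. In every wild-type library pas-3 lay above pas-2 (275 against 231, 334 against 286, 400 against 321 and 294 against 258 FPKM). Only in replicate 3 did pas-5 lie above pas-3 (541 against 400 FPKM), so its place as highest rested on that library. The lowest core level was that of pbs-5, at 147 ± 32.9 FPKM.

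Levels of the regulatory genes lay between 99.2 ± 20.2 FPKM (rpn-1) and 177 ± 26.3 (rpn-9) in wild type, with the exception of rpn-6.2. This paralog of rpn-6.1 had 10.5 ± 1.69 FPKM, while rpn-6.1 had 106 ± 10.8. How reads that map to several places were counted is not given in the sources used here, so the share of each paralog is uncertain. Apart from rpn-6.2, the median coefficient of variation among wild-type libraries was 14.5% for core and 11.7% for regulatory genes, with pas-5 the most variable at 39.8%. The same medians were 4.06% and 5.59% with syb385, and 9.07% and 3.62% with n3315.

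**Figure D1:**
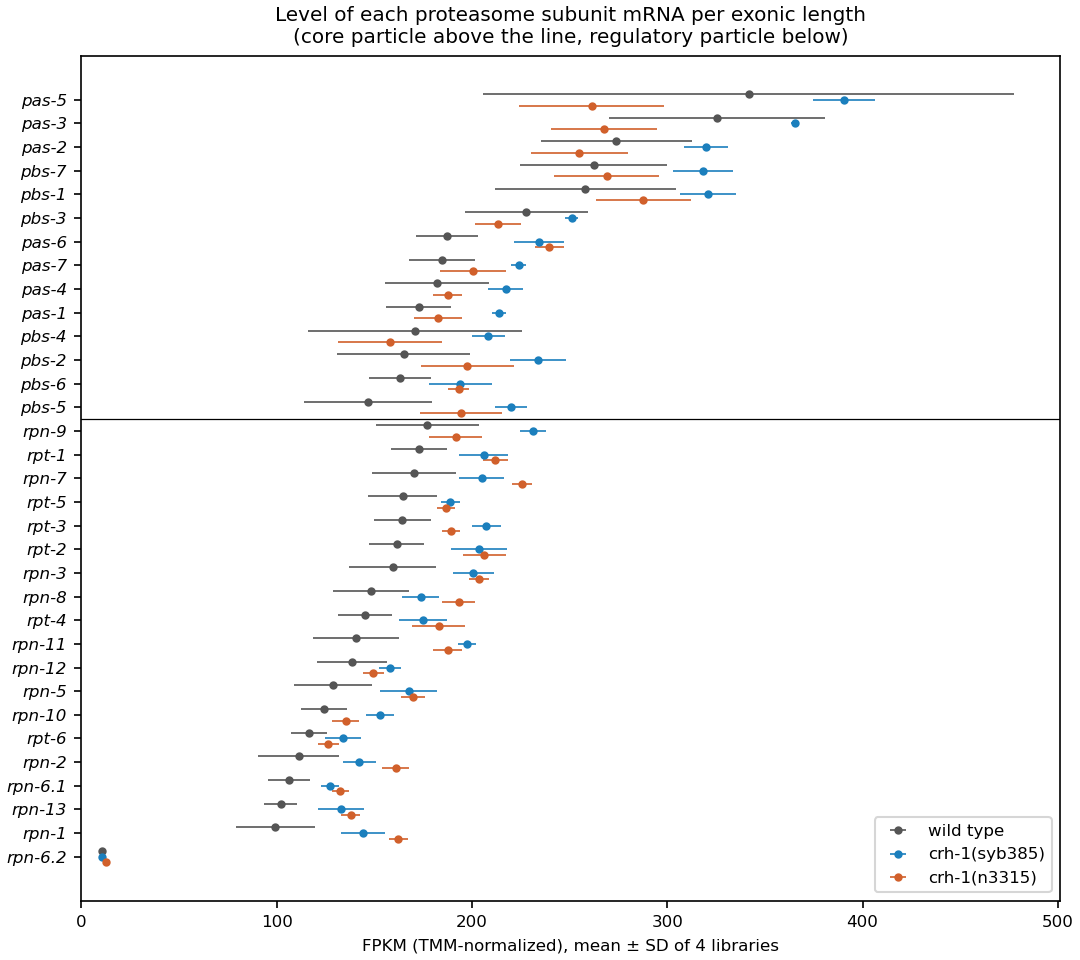
Mean level ± SD of 4 libraries for each of the 33 genes, in FPKM, by genotype, ordered within each particle by wild-type level. All genes but rpn-6.2 (10.5 FPKM in wild type) lie near or above 99.2 FPKM, and the wild-type bar of pas-5 is the widest.

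The 33 genes are spread over the autosomes: 10 on chromosome I, 7 on II, 8 on III, 3 on IV, 5 on V and 0 on X, which holds 14.7% of the tested genes. The nearest pair, pbs-7 and pas-4, is 30837 bases apart. In the WBcel235 build, rpn-1 lies on chromosome IV from 6906415 to 6910156 and rpn-2 on chromosome III from 6198902 to 6202627. These are the longest members, with 3419 and 3106 exonic bases. The core genes are short, with a median exonic length of 950 bases (828 to 1234), against 1484 (928 to 3419) for regulatory genes. Exons of 11 members overlap those of another gene. The largest overlap is in pbs-4, of which 28.9% lies opposite mrrf-1, and rpn-13 shares 116 bases with let-767 on the same strand. Neither the strand setting of the counting nor its handling of reads on overlapping genes is given in the sources used here. How reads in these overlaps were assigned is therefore uncertain.

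In crh-1(syb385), 33 of 33 subunit mRNAs had a higher fitted mean than wild type. Of these, 13 rose at an adjusted p under 0.05 and 0 fell (edgeR's quasi-likelihood test, Benjamini-Hochberg adjustment over all tested genes), against 7.42% of all tested genes called higher and 8.88% called lower. At an unadjusted p under 0.05, 26 were higher and 0 lower, against 13% and 17% of all tested genes. For 20 members, every crh-1(syb385) library lay above every wild-type library, and for 0 members below, against 9.79% and 8.95% of all tested genes. The changes were small: the median log2 fold change was 0.28, from 0.02 (rpn-6.2) to 0.58 (pbs-5), beside a median of -0.05 over all tested genes. None of the members reached 2-fold with an adjusted p under 0.05, a threshold that 6.72% of tested genes passed in either direction. Whether RNA per cell or the number of cells of a type changed cannot be told apart in whole worms.

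The rise in crh-1(syb385) was of like size in both particles. Core genes had a median log2 fold change of 0.28, with 4 of 14 called (pas-1, pas-6, pbs-2 and pbs-5). Regulatory genes had a median of 0.30, with 9 of 19 called (rpt-2, rpt-3, rpn-1, rpn-3, rpn-5, rpn-9, rpn-10, rpn-11 and rpn-13). Without wild-type replicate 3, 25 members were called higher, 12 core and 13 regulatory, beside 12% of all tested genes. In that fit the core median was 0.35 and the regulatory median 0.26. Without wild-type replicate 1, 10 were called (3 core and 7 regulatory) beside 6.54% of tested genes, with medians of 0.20 and 0.27. Fewest were called without crh-1(syb385) replicate 4, when 6 were, beside 5.06% of tested genes.

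**Figure D2:**
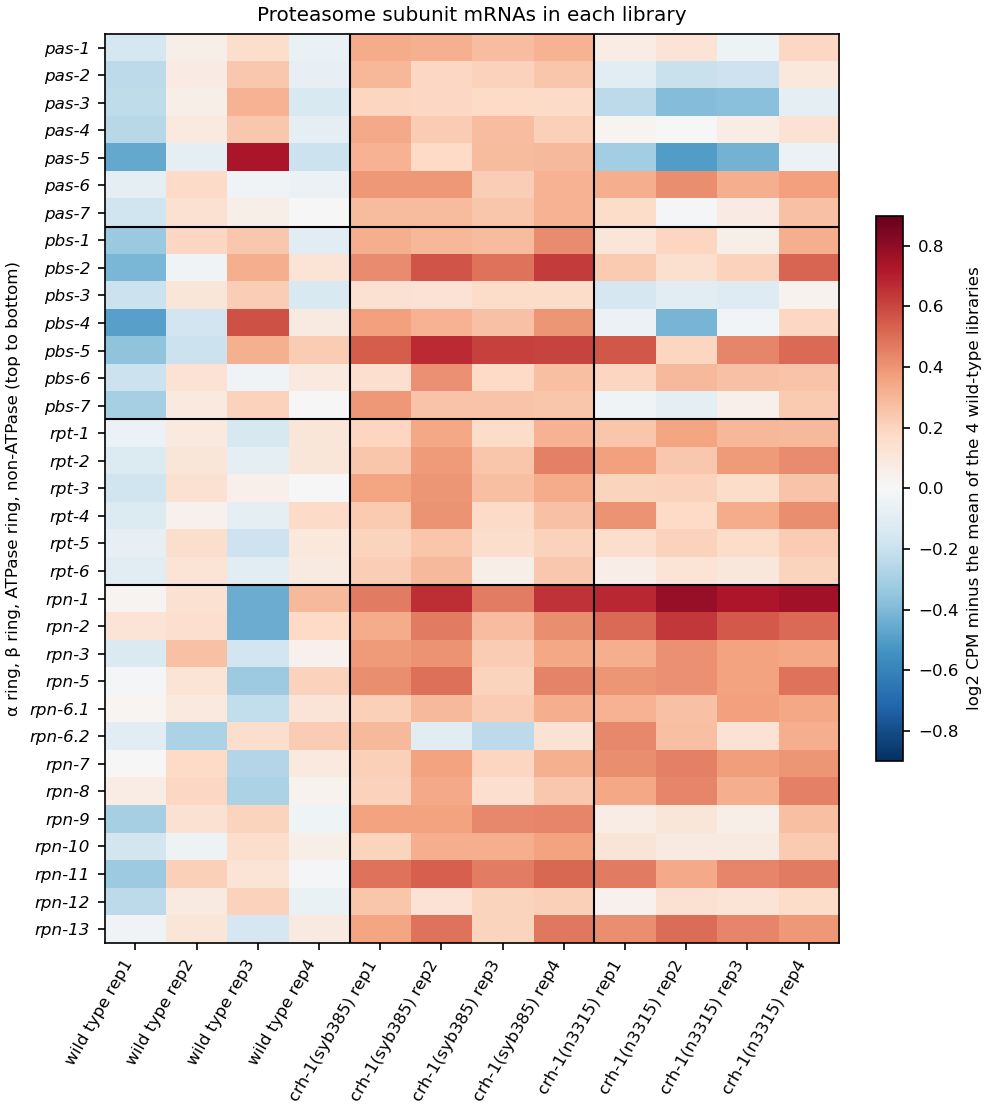
Each cell is a gene's log2 CPM in 1 library minus the mean of the 4 wild-type libraries, with lines between genotypes and rings. The crh-1(syb385) columns are red for nearly all rows, while wild-type replicate 3 is red for most core genes and blue for rpn-1 and rpn-2.

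Among the catalytic β subunits, pbs-5, which by orthology carries the chymotrypsin-like activity, rose most. It had 138, 156, 222 and 209 CPM in wild-type replicates 1 to 4, 259, 284, 272 and 270.3 CPM in crh-1(syb385), and 262, 203, 241 and 253 CPM in the n3315 libraries. All crh-1(syb385) libraries lay above wild type, and 1 n3315 library lay within its range. The log2 fold change was 0.58 ± 0.14 (SE) in crh-1(syb385) (adjusted p = 0.00918) and 0.41 ± 0.14 in n3315 (adjusted p = 0.0258). The n3315 call was lost in 4 of 12 fits with 1 library left out (adjusted p up to 0.07486). For pbs-2, by orthology the trypsin-like subunit, wild type had 123, 159.8, 205 and 178 CPM, crh-1(syb385) had 219.7, 242, 229.8 and 253 CPM, and the n3315 libraries had 193, 181, 189 and 234.8 CPM. The rise to crh-1(syb385), 0.50 ± 0.14 on the log2 scale, was called (adjusted p = 0.0186). That call was lost in 1 of 12 fits with 1 library left out (adjusted p = 0.05984). The n3315 libraries overlapped wild type, with a log2 fold change of 0.26 ± 0.13 (adjusted p = 0.134). Wild-type replicate 3 had the highest wild-type value, and without it the n3315 change was 0.38 and was called (adjusted p = 0.0136).

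The caspase-like subunit pbs-1 had 168, 241, 251 and 199 CPM in wild type, 265, 260.3, 258 and 284 CPM in crh-1(syb385), and 229, 242, 219.7 and 266 CPM in the n3315 libraries. All crh-1(syb385) libraries were above wild type, but the difference of 0.31 ± 0.12 was not called (adjusted p = 0.0857), nor was that of 0.16 ± 0.12 in n3315 (adjusted p = 0.312). Without wild-type replicate 3 the first of these was 0.40 (adjusted p = 0.00898).

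In the α ring, the values of pas-5 depended on wild-type replicate 3. For this gene, wild type had 204, 264, 467 and 245 CPM, with the high value in replicate 3. The crh-1(syb385) libraries had 347, 317, 341 and 343 CPM and the n3315 libraries 225, 197, 209 and 270.3 CPM. Every n3315 library was below every crh-1(syb385) library, and wild type overlapped both. The log2 fold change against wild type was 0.19 ± 0.19 in crh-1(syb385) (adjusted p = 0.551) and -0.39 ± 0.19 in n3315 (adjusted p = 0.122). Without wild-type replicate 3 these were 0.50 (adjusted p = 0.0022) and -0.07 (adjusted p = 0.604).

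A similar order was seen for pas-3 and pas-2. Wild type had 289, 352, 421 and 309 CPM for pas-3, crh-1(syb385) had 387, 385.2, 383 and 382 CPM, and the n3315 libraries had 287, 258, 262 and 319 CPM. For pas-2 the values were 206, 254, 286 and 229.7 CPM in wild type, 297, 275, 279 and 288 CPM in crh-1(syb385), and 225, 211, 213 and 258 CPM in the n3315 libraries. In both genes the mutants did not overlap each other. Wild type overlapped n3315 in several libraries but crh-1(syb385) only through replicate 3, and the other wild-type libraries lay below every crh-1(syb385) library. In crh-1(syb385) neither gene was called against wild type (adjusted p = 0.359 for pas-3 and 0.177 for pas-2). Both were called higher without that library, by 0.28 (adjusted p = 0.0235) and 0.31 (adjusted p = 0.0153) on the log2 scale.

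Of the ATPase ring, 2 of 6 genes were called higher in crh-1(syb385) and 3 of 6 in the n3315 libraries (rpt-1, rpt-2 and rpt-4). The shares of all tested genes called higher were 7.42% and 20.3%. The values of rpt-3 were 196, 243, 229 and 221 CPM in wild type, 284, 292, 268 and 279.6 CPM in crh-1(syb385), and 255, 256, 249 and 265 CPM in the n3315 libraries. Both mutants lay above wild type in all libraries. The crh-1(syb385) difference, 0.34 ± 0.09 on the log2 scale, was called (adjusted p = 0.0155) and that of 0.20 ± 0.09 in n3315 was not (adjusted p = 0.0716). The latter was called without wild-type replicate 3 (0.22, adjusted p = 0.0298). Across the 6 genes the changes ran from 0.20 to 0.34 in crh-1(syb385) and from 0.12 to 0.35 in n3315.

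Among the non-ATPase subunits, rpn-1, a large scaffold, had the greatest change in the main fit. It had 339, 366, 244 and 407 CPM in wild type, 461, 529, 458 and 524 CPM in crh-1(syb385), and 533, 573, 552 and 561 CPM in the n3315 libraries. The 3 genotypes did not overlap. The log2 fold change was 0.54 ± 0.13 in crh-1(syb385) (adjusted p = 0.00992) and 0.71 ± 0.13 in n3315 (adjusted p = 0.000504). Without wild-type replicate 3 these were 0.41 and 0.58, and in crh-1(syb385) rpn-11 (0.53) and rpn-9 (0.46) rose more. With the trend with gene length removed, rpn-1 rose by 0.57 and 0.48, and in n3315 rpn-11 (0.56) rose more. The other large scaffold, rpn-2, had 370.2, 378, 249.9 and 386 CPM in wild type, 429, 472, 412 and 456 CPM in crh-1(syb385), and 486, 531, 500.1 and 484 CPM in the n3315 libraries. Wild-type replicate 3 was again lowest. The crh-1(syb385) difference, 0.35 ± 0.12 on the log2 scale, was not called (adjusted p = 0.059), and that of 0.53 ± 0.12 in n3315 was (adjusted p = 0.00272). The first was smaller but called without that library (0.23, adjusted p = 0.026).

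The deubiquitinase rpn-11 removes ubiquitin chains from arriving substrates. It had 122, 178, 167 and 152 CPM in wild type, 216, 223, 212 and 219 CPM in crh-1(syb385), and 212, 194, 208 and 212 CPM in the n3315 libraries. It was above wild type in every library of both mutants, by 0.49 ± 0.11 in crh-1(syb385) (adjusted p = 0.00561) and 0.41 ± 0.11 in n3315 (adjusted p = 0.00551) on the log2 scale. Of the ubiquitin receptors, rpn-13 had 139, 153, 128 and 149.8 CPM in wild type, 182, 199, 163 and 197 CPM in crh-1(syb385), and 189, 202, 193 and 186 CPM in the n3315 libraries. It rose by 0.38 ± 0.09 in crh-1(syb385) (adjusted p = 0.0118) and 0.43 ± 0.09 in n3315 (adjusted p = 0.00181). The other receptor, rpn-10, had 144, 156, 179 and 166 CPM in wild type, 185, 201, 201 and 206 CPM in crh-1(syb385), and 174, 170.1, 169.6 and 189 CPM in the n3315 libraries. Its change was 0.30 ± 0.09 in crh-1(syb385) (adjusted p = 0.0342) and 0.12 ± 0.09 in n3315, where the libraries overlapped wild type (adjusted p = 0.292). The crh-1(syb385) call was lost in 7 of 12 fits with 1 library left out (adjusted p up to 0.09725).

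For rpn-6.1, a subunit that clamps the regulatory particle to the core, wild type had 179, 188, 152 and 192 CPM, crh-1(syb385) had 206, 217, 207 and 222 CPM, and the n3315 libraries had 219.8, 212, 229 and 225 CPM. Every mutant library was above wild type. The log2 fold change was 0.26 ± 0.09 in crh-1(syb385), which was not called (adjusted p = 0.062), and 0.32 ± 0.09 in n3315, which was (adjusted p = 0.0107). The first was called without wild-type replicate 3 (0.19, adjusted p = 0.043). The paralog rpn-6.2 had 15.2, 13.3, 18.1 and 18.99 CPM in wild type, 19.9, 15.2, 13.8 and 17.7 CPM in crh-1(syb385), and 21.9, 19.6, 17.8 and 20.3 CPM in the n3315 libraries. All genotypes overlapped, and neither change was called (0.02 ± 0.15 and 0.28 ± 0.15).

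**Figure D3:**
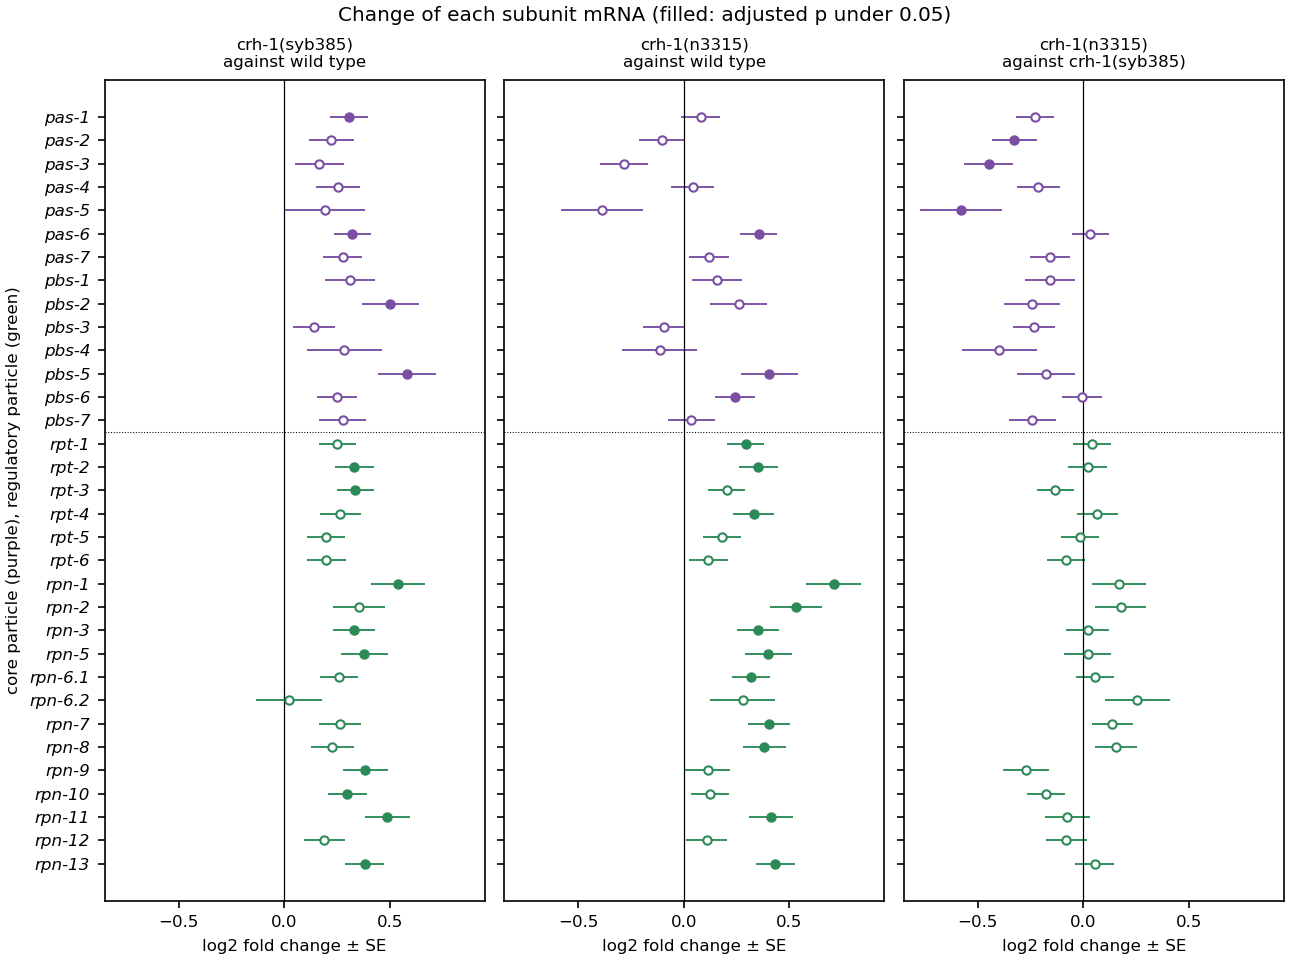
Fitted log2 fold change ± SE of each gene in the 3 comparisons, with core genes in purple and regulatory genes in green, and filled points at an adjusted p under 0.05. In the left panel all 33 points lie above 0, in the middle panel 5 core genes lie below 0, and in the right panel 13 of 14 core genes lie below 0.

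In the n3315 libraries the particles diverged. Of the 33 members, 15 rose and 0 fell, against 20.3% of all tested genes called higher and 21.7% called lower. At an unadjusted p under 0.05, 16 were higher and 1, pas-3, was lower, against 23.7% and 26% of tested genes. With DESeq2's Wald test 16 were called higher and 0 lower, against 22.2% and 23.1%. For 15 members all n3315 libraries lay above wild type and for 0 below, against 20.5% and 18.2% of tested genes. None reached 2-fold, where 15.4% of tested genes were called. All 19 regulatory genes had a positive log2 fold change, with a median of 0.33 and 12 called. The core genes had a median of 0.06, 5 of 14 were negative and 3 were called (pas-6, pbs-5 and pbs-6). The median over all tested genes was -0.04. Without wild-type replicate 3, 17 members were called higher (4 core and 13 regulatory) beside 21.5% of tested genes, with medians of 0.13 and 0.30. Without wild-type replicate 1 the core median was -0.01, and 1 core gene was called higher and 2 lower (pas-3 and pas-5). In that fit 20.9% of all tested genes were called higher and 21.1% lower.

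Between the mutants 0 members were higher in n3315 and 3 were lower, against 10.6% and 7.42% of all tested genes. In this fit the number lower was thus near the share over all tested genes. At an unadjusted p under 0.05, 0 were higher and 8 lower, against 17.5% and 15.3%. The 3 called were pas-5 (-0.58 ± 0.19 on the log2 scale, adjusted p = 0.0499), pas-3 (-0.45 ± 0.12, adjusted p = 0.0159) and pas-2 (-0.33 ± 0.11, adjusted p = 0.0466). In all 3 the n3315 libraries lay below every crh-1(syb385) library. Such separation was seen for 10 members below and 3 above, against 14.3% and 19.2% of tested genes, and 8 of the 10 were core genes. None reached 2-fold (3.88% of tested genes). The core median was -0.23, with 13 of 14 genes negative, and the regulatory median 0.02. Without wild-type replicate 3, which enters this fit only through its estimate of spread and normalization, 8 members were called lower, beside 13.1% of tested genes. Without n3315 replicate 2, 0 were called lower, beside 3.02%. When replicate number was added to the fit 1 was called lower, beside 6.27%. With only the 2 mutants fitted, 15 were called lower (12 core and 3 regulatory), beside 19.2% of the genes tested there.

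**Figure D4:**
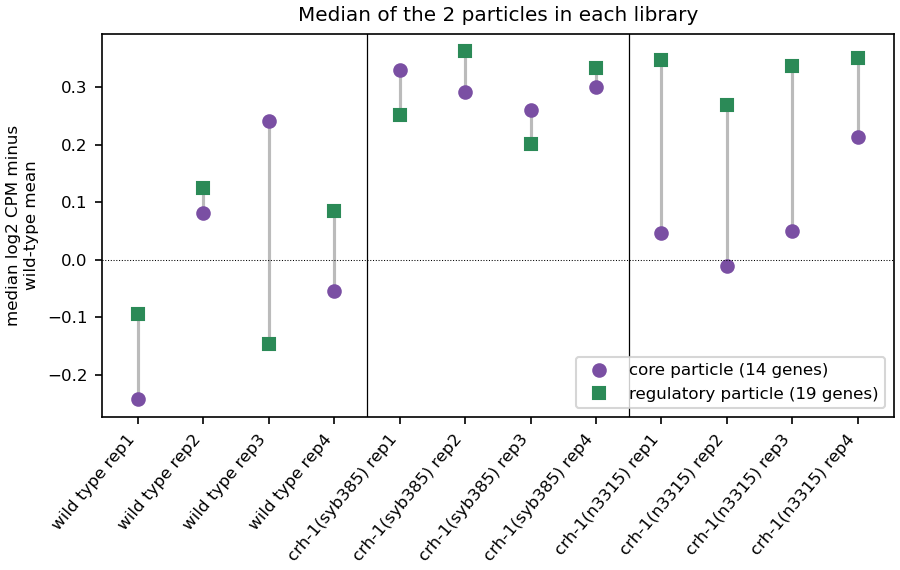
Median log2 CPM minus the wild-type mean over the 14 core genes (circles) and the 19 regulatory genes (squares) in each library. Core exceeds regulatory by 0.39 in wild-type replicate 3 and lies below it by 0.14 to 0.30 in the n3315 libraries.

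Within libraries, the core minus regulatory difference of medians was -0.15 to -0.04 in wild-type replicates 1, 2 and 4, 0.39 in replicate 3, -0.07 to 0.08 with syb385, and -0.30 to -0.14 with n3315. The summed FPKM of core over regulatory genes was 1.21 ± 0.236 in wild type (1.05 to 1.56, highest in replicate 3). It was 1.18 ± 0.0428 with syb385 (1.12 to 1.21) and 0.981 ± 0.0571 with n3315 (0.924 to 1.06). The n3315 range overlapped that of wild type. Wild-type replicate 3 had the highest value of its genotype for 11 of 14 core genes and the lowest for 10 of 19 regulatory genes, and replicate 1 had the lowest for 14 of 14 core genes.

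The split between particles in n3315 moved with gene length. Over all tested genes, the median log2 fold change of n3315 against wild type was -0.22 at 750 to 1000 exonic bases. It was 0.08 at 1500 to 2000 and 0.32 from 3000 up. In crh-1(syb385) it stayed between -0.08 and -0.01. Both comparisons include wild-type replicate 3, whose long-minus-short difference was -0.72. The other wild-type libraries had 0.16 to 0.34, above the -0.03 to 0.06 of crh-1(syb385). The flat medians of crh-1(syb385) therefore hold only relative to a wild-type mean that includes replicate 3. With each library's length trend removed, an alternative chosen after seeing the data, the n3315 medians were 0.25 for core and 0.32 for regulatory genes, with 25 members called higher (9 core and 16 regulatory) beside 22.4% of tested genes. In crh-1(syb385) 28 were then called higher (11 core and 17 regulatory) beside 12.5%. Between the mutants, pas-3 (-0.35, adjusted p = 0.00794) and pas-5 (-0.42, adjusted p = 0.0454) were still called lower, beside 8.15% of tested genes. The core median there was -0.12. What gave rise to the length trend was not tested.

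**Figure D5:**
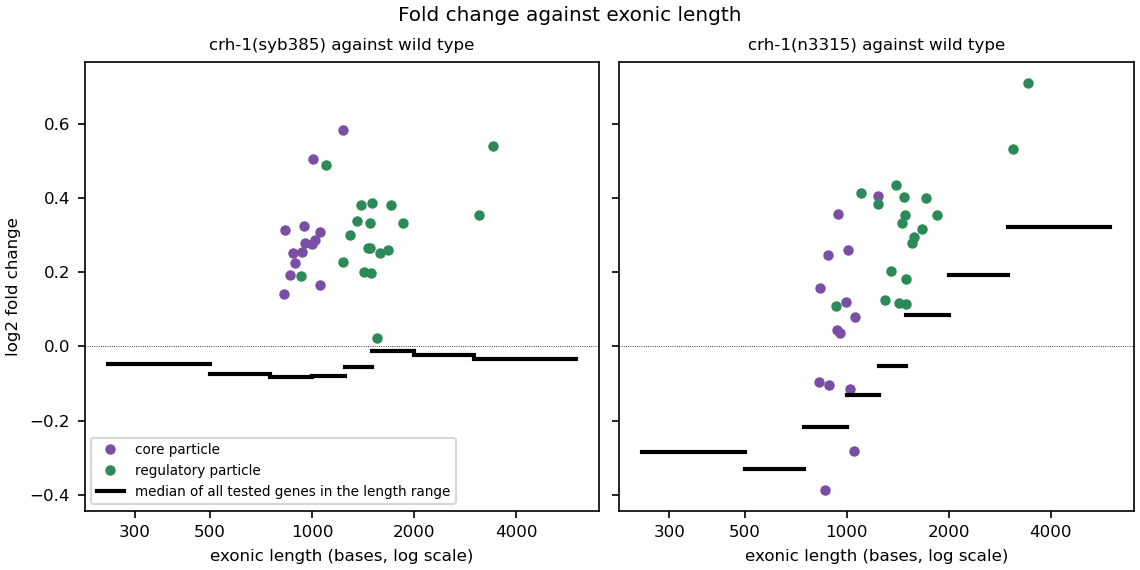
Log2 fold change against wild type by exonic length (log scale) for core genes (purple) and regulatory genes (green), with bars at the median of all tested genes in each length range, the outermost ranges being open. In the n3315 panel the bars climb from -0.33 at 500 to 750 bases to 0.32 from 3000 up, and the bar below 500 is at -0.29. Most members there lie above the bar of their range.

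Markers of the germline and oocytes, the tissue that fills much of an adult hermaphrodite, moved with the genotypes. Among all tested genes, 7.42% were called higher and 8.88% lower in crh-1(syb385), and 20.3% and 21.7% in n3315. Of 9 germline and oocyte markers, 5 rose in crh-1(syb385) and 9 in the n3315 libraries, and 0 fell. Their summed level was 2438 to 4096 CPM in wild type, 4608 to 5423 with syb385 and 6186 to 6906 with n3315. Intestine markers summed to 19783 to 38118 CPM in wild type, 43117 to 53040 with syb385 and 49708 to 64584 with n3315. Nearly all of this sum was the yolk protein genes vit-2, vit-5 and vit-6. Of the 6 intestine genes, 3 rose and 1 fell in crh-1(syb385), and 4 rose and 1 fell in n3315. The one that fell was ges-1, an intestinal esterase gene, at 46.0 CPM in wild type, 33.7 with syb385 and 24.5 with n3315, while elt-2, for the intestinal GATA factor, was not called in either. Sperm markers stayed low (18.0 to 25.1 CPM in wild type, 16.8 to 40.9 and 11.2 to 42.2 in the mutants), as did embryo markers (153 to 187 CPM over all libraries). Of 8 tested sperm markers, 0 were called against wild type in either mutant. Between the mutants 1 was higher and 1 lower in n3315, against 10.6% and 7.42% of tested genes. Of 7 tested embryo markers, 0 were called in crh-1(syb385), and 0 rose and 2 fell in n3315. Body wall muscle markers summed to 1495 to 3113 CPM in wild type, 2875 to 4033 with syb385 and 4326 to 5401 with n3315, where 4 of 5 rose. Hypodermis markers summed to 546 to 1115 CPM in wild type and 1456 to 1869 in the mutants, most of it col-19. Of these 5, 1 rose and 1 fell in crh-1(syb385), and 2 rose and 2 fell in n3315. The cuticle collagen gene dpy-7 fell in both, from 59.0 CPM in wild type to 35.1 with syb385 and 10.1 with n3315. Neuron markers summed to 228 to 307 CPM over all libraries, most of it snb-1 and egl-3. Of these 6, 0 rose in either mutant, while 3 fell in crh-1(syb385) (unc-31, ric-4 and unc-64) and 2 in n3315 (ric-4 and unc-64). None of the listed markers was at 0 in all libraries of a genotype. The part of these markers in the subunit changes was not tested.

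Genes listed here for proteasome regulation and assembly did not move as a block. The list held skn-1, ddi-1, png-1, sel-1, sel-9, sel-11, aip-1, dss-1, ecps-1, ecps-2, usp-14, ubh-4, psmd-9, psme-3, akir-1 and pqm-1. Of 16, 1 rose and 1 fell in crh-1(syb385), against 7.42% and 8.88% of all tested genes. The called genes were usp-14, a proteasome-bound deubiquitinase (0.30 ± 0.09), and the transcription factor gene pqm-1 (-0.60 ± 0.15). In the n3315 libraries 5 rose and 3 fell, against 20.3% and 21.7% of all tested genes. The largest rise was that of ecps-2 (1.03 ± 0.31), at 0.833 to 2.47 CPM in wild type and 2.81 to 3.96 CPM in n3315, and the largest fall that of pqm-1 (-0.999 ± 0.15), at 36.0 to 39.8 CPM in wild type and 17.9 to 21.3 CPM in n3315. Between the mutants 4 were higher and 2 lower in n3315, against 10.6% and 7.42% of all tested genes. The called genes were led by skn-1 (0.50 ± 0.14) and psmd-9 (-0.56 ± 0.17), a gene for an assembly chaperone. In worms the skn-1 protein drives proteasome gene expression when proteasome function fails.

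Of 13 genes for ubiquitin supply and delivery to the proteasome, 4 rose and 0 fell in crh-1(syb385), against 7.42% and 8.88% of tested genes. The largest rise was in cdc-48.2 (0.54 ± 0.11), which encodes an unfolding ATPase. In n3315 9 rose and 1 fell, against 20.3% and 21.7%. The largest rise there was in cdc-48.1 (0.83 ± 0.13), the paralog of cdc-48.2, at 365 to 587 CPM in wild type and 874 to 913 CPM in n3315. The ubiquitin ligase gene chn-1 fell (-0.42 ± 0.15). Between the mutants 0 were higher in n3315 and 1, ubq-2, was lower (-0.37 ± 0.12), against 10.6% and 7.42%.

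Other cytosolic complexes gave mixed results beside the proteasome. Of the 8 genes of the CCT chaperonin, which folds actin and tubulin, 6 rose and 0 fell in each mutant, with medians of 0.35 and 0.33, and cct-6 rose most in both (0.57 ± 0.09 and 0.46 ± 0.09). Of 6 matched genes of the COP9 signalosome, whose subunits resemble those of the regulatory particle, 0 rose or fell in crh-1(syb385) and 2 fell in n3315, the larger being csn-2 (-0.76 ± 0.17). The medians there were 0.01 and -0.07, beside -0.05 and -0.04 over all tested genes. Of all tested genes, 7.42% were called higher and 8.88% lower in crh-1(syb385), and 20.3% and 21.7% in n3315.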

How the data were processed

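Whole-worm poly(A) RNA-Seq came from 4 biological replicates per genotype. The authors used STAR v2.7.5a for alignment (build WBcel235) and featureCounts v1.5.0 for exon reads per gene. They deposited raw counts with exonic lengths. Strand setting, annotation release and the treatment of reads mapping to several places are not given in the sources used here. Depth was 16348586 to 25369267 counts per library.

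Genes were kept by filterByExpr (minimum count 10, minimum total 15) of edgeR v4.0.16 in R v4.3.3, and the deposited counts were TMM-normalized. The quasi-likelihood fit used the 12 libraries together, had no term but genotype, and gave 3 contrasts. Benjamini-Hochberg adjustment covered the 14511 genes, with calls at an adjusted p under 0.05. CPM and FPKM were computed here. The length trend was removed as a loess (span 0.5) of log2 CPM (prior count 2) per library. The script was tested on simulated data. Alternatives were DESeq2 v1.42.0 and its size factors, no filter on low counts, fits of 2 genotypes, a replicate block, and each library left out.

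Named genes were those of set roles (rpn-6.1, rpn-6.2, rpn-10, rpn-11, rpt-3, pbs-1, pbs-2 and pbs-5), the 3 largest rises and 3 largest falls per comparison among called members, and the called genes with the largest rise and fall in each related list. The members and lists were chosen with earlier results of these data known.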

Additional observations from a re-analysis of the deposited data

Results flagged for a closer look

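In 99 groups of 4 libraries (33 genes in 3 genotypes), the gap of the extreme library to its nearest neighbour set 2 single libraries apart, where chance gives about 1 in 20 groups. For rpn-2, wild-type replicate 3 had 250 CPM and the other 3 libraries 370.2 to 385.6 CPM. For pbs-7, crh-1(syb385) replicate 1 had 326 CPM and the others 295.9 to 296.9 CPM.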

How the results depend on the processing

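The number of members called higher in crh-1(syb385), 13, was 21 with DESeq2's Wald test (beside 9.91% of all tested genes called higher), 4 when only the 2 genotypes compared were fitted (5.39%), 28 with the length trend removed (12.5%), and 6 to 25 when 1 library was left out (5.06% to 12%). In n3315 the 15 called higher became 25 with the length trend removed (22.4%), and 13 to 17 with 1 library left out (16.9% to 21.5%). The 0 called lower became 0 to 2, with 2 without wild-type replicate 1 (21.1%). The 3 called lower between the mutants became 15 in the fit of 2 genotypes (beside 19.2% of its tested genes). With 1 library left out they became 0 to 8 (3.02% to 13.1%), with 0 without n3315 replicate 2 or 3. With the length trend removed the core median moved from 0.06 to 0.25 in n3315 and from -0.23 to -0.12 between the mutants. Among the genes described one by one, direction also turned with the length trend removed for pas-2 in n3315 against wild type (0.12) and, between the mutants, for rpn-11 (0.00753), rpn-2 (-0.0601), pbs-1 (0.0203) and rpn-1 (-0.0884), and with 1 library left out for rpn-6.2 in crh-1(syb385) (-0.0712 to 0.106) and rpn-13 between the mutants (-0.00179 to 0.0909). Counting all 33, direction turned with the length trend removed for 3 members in n3315 against wild type and 8 between the mutants, in the fit of 2 genotypes for 4 between the mutants, and at least once with 1 library left out for 1 in crh-1(syb385), 3 in n3315 and 7 between the mutants. None of these turned values was called. The cause was not tested.

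Replicate numbers recur across genotypes, but same-numbered libraries deviated together by correlations of only -0.08 to 0.12, so the numbers were not taken as pairs. With the replicate block, 13 members were called higher in crh-1(syb385), 15 in n3315, and 1 lower between the mutants. The shares of all tested genes were 7.05%, 20.1% and 6.27%. The member with the fewest counts was rpn-6.2, at 285 to 457 counts per wild-type library.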
